A study of Bruguiera gymnorhiza with 19 samples.

Results

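Leaf transcripts of the Burma mangrove, Bruguiera gymnorhiza, which grows in tidal salt water, were compared after 24 h and after 6 h in 1 M sorbitol, with 3 samples at each time. These 6 arrays, 1 per sample, were chosen by their labels (1 day and 6 hours; the labels spell the agent Solbitol) out of 18 samples on 19 arrays. The other samples were leaves after 24 h and 6 h in 500 mM NaCl and leaves at 0 h of the sorbitol and the NaCl series, with 3 samples in each group and a repeat array for 1 NaCl 0 h sample. Every plant was 3 years and 7 months old and had been raised from seed in vermiculite with dilute nutrient solution under equal hours of light and darkness. The stress solution took the place of the culture water. Leaf RNA was amplified, labelled with Cy5 and hybridised to oligonucleotide probes of 35 to 40 bases. RNA came from leaf tissue of mixed cells, so fewer cells of a type and less RNA per cell cannot be told apart. The replicates A, B and C are called biological, but nothing says that they were separate plants, and p-values reflect only how much these samples vary.

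Sorbitol is an uncharged sugar alcohol, and around roots it draws water out without bringing in sodium or chloride. Plants are known to answer such water loss first with abscisic acid signalling and closing of stomata, and later with compatible solutes and protective proteins that hold water and keep membranes and enzymes intact. Many leaf transcripts also follow the light period and the circadian clock. Untreated leaves of 6 h or 24 h were not analysed here, so time in sorbitol and time of day cannot be told apart.

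The files name each probe by the cDNA clone (Bg) or assembled contig (CL) it was made from and by its first and last base there, and give no gene names. Defining transcripts of leaf could therefore not be looked up, and the tissue label was not checked against markers. The probes that changed most are shown first, since the sequence is their only description. Each is written 5′ to 3′ as deposited, and capitals mark the bases it shares with another probe printed here. They are called by clone or contig in the text. Among the probes with the highest log2 fold changes at 24 h were these, with the probes that overlap them. All were above the negative controls in the 6 samples, except Bg01-08_I17, which was so in 2 of 3 samples at 6 h.
Bg04-21_I17_25_59: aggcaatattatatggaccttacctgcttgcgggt
Bg04-30_K13_568_603: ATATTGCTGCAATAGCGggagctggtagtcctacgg
Bg04-25_N23_538_576: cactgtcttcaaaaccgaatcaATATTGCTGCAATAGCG
Bg02-09_D21_98_132: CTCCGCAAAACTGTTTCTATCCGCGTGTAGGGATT
Bg01-08_I17_100_134: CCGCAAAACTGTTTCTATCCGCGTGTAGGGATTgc
CL776Contig1_95_129: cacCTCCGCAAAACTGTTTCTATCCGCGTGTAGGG
Bg02-08_F07_392_426: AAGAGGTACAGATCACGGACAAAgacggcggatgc
Bg01-01_D15_380_414: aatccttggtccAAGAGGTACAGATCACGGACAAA
Bg03-10_L24_340_374: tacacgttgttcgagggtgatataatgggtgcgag
Bg01-08_I17 shares 33 bases and CL776Contig1 32 bases with Bg02-09_D21, so the 3 probes can read the same transcript. Bg01-01_D15 shares 23 bases with Bg02-08_F07, and Bg04-30_K13 and Bg04-25_N23 have 17 bases in common.

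The probes with the lowest log2 fold changes at 24 h that were above the negative controls in the 6 samples were the following, with 2 that overlap the last of them.
Bg05-10_D05_200_234: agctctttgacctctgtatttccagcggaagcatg
CL286Contig1_635_669: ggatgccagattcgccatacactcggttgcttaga
Bg05-07_B05_380_414: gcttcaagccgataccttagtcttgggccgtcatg
Bg02-10_I03_470_504: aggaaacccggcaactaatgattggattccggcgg
Bg01-06_A02_667_701: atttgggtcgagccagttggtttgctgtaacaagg
CL68Contig1_553_587: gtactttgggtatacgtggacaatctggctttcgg
CL543Contig1_394_429: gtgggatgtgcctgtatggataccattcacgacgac
Bg03-09_H03_58_92: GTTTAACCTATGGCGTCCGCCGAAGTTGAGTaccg
Bg04-03_N01_54_88: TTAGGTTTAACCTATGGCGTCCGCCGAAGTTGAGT
CL120Contig1_54_88: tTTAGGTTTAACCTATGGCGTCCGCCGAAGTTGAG
Bg04-03_N01 and CL120Contig1 share 31 and 30 bases with Bg03-09_H03.

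The next probes were above the negative controls in all 3 samples of one time and in none of the other. Those detected at 24 h stand first, and the last 4 were detected at 6 h.
Bg03-01_D16_400_434: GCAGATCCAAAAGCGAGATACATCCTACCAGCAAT
Bg04-05_N13_400_434: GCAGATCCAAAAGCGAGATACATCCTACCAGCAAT
Bg05-20_B04_595_629: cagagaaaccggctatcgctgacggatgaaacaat
Bg05-25_K02_417_451: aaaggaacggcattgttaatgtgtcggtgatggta
Bg04-05_M06_225_259: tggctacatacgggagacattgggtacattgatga
CL177Contig1_346_381: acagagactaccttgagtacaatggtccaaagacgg
Bg03-09_J10_665_699: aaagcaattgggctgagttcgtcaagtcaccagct
CL692Contig1_551_585: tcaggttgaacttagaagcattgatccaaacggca
Bg05-22_G11_449_483: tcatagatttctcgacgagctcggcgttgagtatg
Bg03-01_D16 and Bg04-05_N13 carry the same 35 bases from different clones.

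The last probes were chosen for the difference between their changes in sorbitol and in NaCl.
CL41Contig1_619_653: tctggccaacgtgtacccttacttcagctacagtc
Bg01-01_B02_105_140: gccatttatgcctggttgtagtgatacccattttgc
Bg05-14_H17_577_611: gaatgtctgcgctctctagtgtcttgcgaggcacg
Bg01-07_B02_289_323: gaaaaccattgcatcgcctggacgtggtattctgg
CL276Contig1_815_849: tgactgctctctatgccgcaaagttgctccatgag

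Some arrays were much dimmer than others. The median probe intensity was 396.6, 780.2 and 84.27 at sorbitol 24 h A, B and C, against 225.1, 632.2 and 52.87 at sorbitol 6 h A, B and C. An intensity of 0 was read for 2433 probes on sorbitol 24 h C and 3216 on sorbitol 6 h C, against at most 46 on the other 4 arrays of the comparison. Sorbitol 0 h C and NaCl 6 h C were alike, with 2126 and 2206 probes at 0. These 4 arrays with over 1000 probes at 0 are called the floor arrays. Their values were brought to the scale of the others by quantile normalization. Probes read as 0 on such an array then share a single value, 7.04 on sorbitol 6 h C and 6.88 on sorbitol 24 h C. Where these values are printed below for sample C, they stand for a reading of 0. The counts of sorbitol calls and of differences from NaCl, and some of the named probes, are also given without them. The counts called in NaCl and in both series are given only with them. Normalized log2 intensities correlated across probes at 0.885 to 0.954 within sorbitol 24 h and 0.876 to 0.934 within sorbitol 6 h, against 0.816 to 0.888 between the times. The number of arrays limits the precision of every value.

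Of 8655 tested probes, 467 (5.4%) differed between 24 h and 6 h in sorbitol (limma, Benjamini-Hochberg adjusted p under 0.05), 276 of them higher (3.19%) and 191 lower (2.21%) at 24 h. The change was at least 2-fold for 251 of the higher and 162 of the lower probes, and at least 4-fold for 68 and 24. The median log2 fold change was 1.53 among the higher and -1.28 among the lower probes, against 0.01 over all tested. The 3 samples at 24 h lay wholly above or below the 3 at 6 h for 455 of the called probes (97.4%), against 21.5% of all tested. Without the floor arrays 235 of 8393 probes were called, 173 higher and 62 lower, and 185 of them were among the 467. Sorbitol 24 h and 6 h then had only 2 samples each. Leaving out sorbitol 24 h C gave 271 calls, leaving out sorbitol 6 h B 290 and leaving out sorbitol 24 h B 306.

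**Figure D1:**
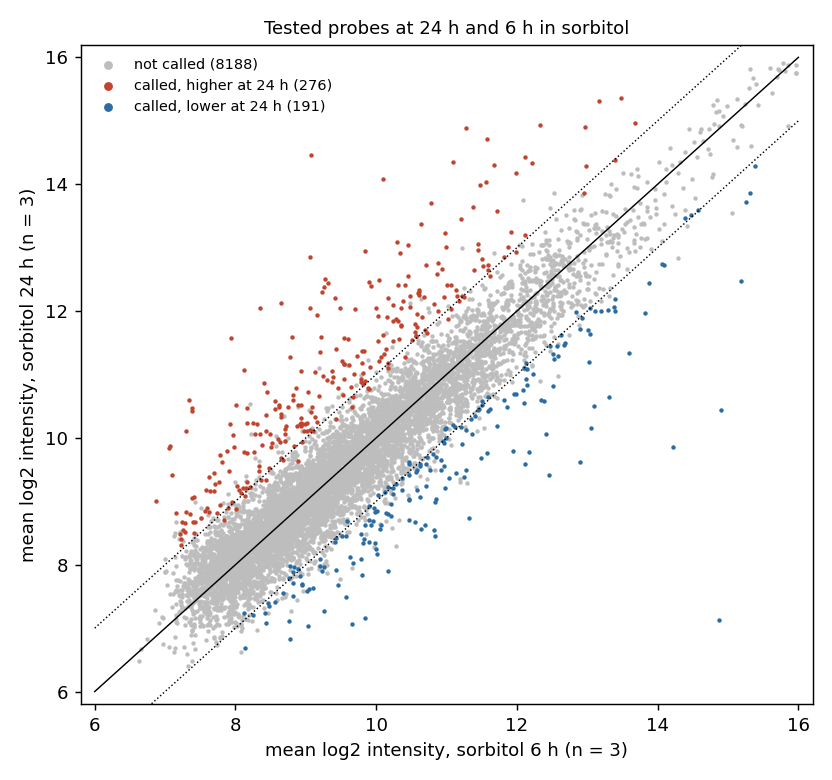
Mean log2 intensity of each tested probe at sorbitol 24 h (vertical axis) against sorbitol 6 h (horizontal axis), 3 samples each. Red points are the 276 probes called higher at 24 h and blue points the 191 called lower; the solid line marks equality and the dotted lines a 2-fold change. Called probes lie on both sides along the whole range of intensity.

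Bg04-21_I17 rose most among the probes shown here that were detected at both times. It read 14.93, 13.86 and 14.61 at 24 h (log2 intensity in samples A, B and C), against 9.21, 8.88 and 9.12 at 6 h. The lowest 24 h sample stood far above the highest 6 h sample, and untreated leaves were near the 6 h level, with 9.06, 8.72 and 9.10 at sorbitol 0 h. The log2 fold change was 5.39 (limma, SE 0.29, adjusted p = 1.14e-10), and 5.18 without the floor arrays. With foreground medians in place of means it was smaller, 3.83 (limma adjusted p = 0.000105). It was 3.68 with the authors' quantile normalization of medians rebuilt (limma adjusted p = 0.000108).

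Bg04-30_K13 and Bg04-25_N23, which share part of their sequence, were both higher at 24 h. Bg04-30_K13 read 11.74, 13.22 and 13.62 at 24 h, against 9.77, 9.14 and 8.27 at 6 h, a log2 fold change of 3.79 (limma, SE 0.44, adjusted p = 1.27e-05). It was above the negative controls in none of the sorbitol 0 h samples (7.77 ± 0.69, SD, n = 3). Bg04-25_N23 read 11.71, 12.63 and 13.00 at 24 h, against 10.41, 9.42 and 8.14 at 6 h, a log2 fold change of 3.13 (limma, SE 0.45, adjusted p = 0.000124). It was detected in 1 of 3 sorbitol 0 h samples. In both probes C was the highest sample at 24 h and the lowest at 6 h, and C is the floor array at each time. Without the floor arrays the log2 fold change was 2.92 for Bg04-30_K13 and 2.19 for Bg04-25_N23, and both were still called.

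Bg02-08_F07, Bg01-01_D15 and Bg03-10_L24 were bright before treatment, and their 6 h samples were spread widely. Bg02-08_F07 read 14.63, 14.11 and 14.30 at 24 h, against 12.04, 11.18 and 10.06 at 6 h, a log2 fold change of 3.25 (limma, SE 0.52, adjusted p = 0.000335). The probe that overlaps it, Bg01-01_D15, changed by 2.94 (limma, SE 0.49, adjusted p = 0.000591). Bg03-10_L24 read 14.61, 14.52 and 15.02 at 24 h, against 12.59, 12.19 and 9.92 at 6 h, a log2 fold change of 3.15 (limma, SE 0.51, adjusted p = 0.000436). The 24 h samples of these probes lay above every 6 h and 0 h sample. Sample C, the floor array, was the lowest at 6 h in each. Without the floor arrays the log2 fold change was 2.73 for Bg02-08_F07 and 2.16 for Bg03-10_L24, and both were still called.

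Bg02-09_D21 and the probes that overlap it dipped at 6 h. Bg02-09_D21 read 13.00, 13.31 and 12.74 at 0 h, 8.77, 8.79 and 8.39 at 6 h, and 12.23, 11.77 and 12.40 at 24 h. The change of 24 h over 6 h was 3.48 on the log2 scale (limma, SE 0.28, adjusted p = 8.88e-08), after one of -4.37 for 6 h over 0 h (limma, SE 0.28, adjusted p = 2.64e-09). No samples of different times overlapped, and the 24 h level was still 0.88 below that of 0 h (limma adjusted p = 0.0485). Bg01-08_I17 and CL776Contig1, which share most of the probe's bases, changed by 3.70 and 2.79 between 24 h and 6 h.

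**Figure D2:**
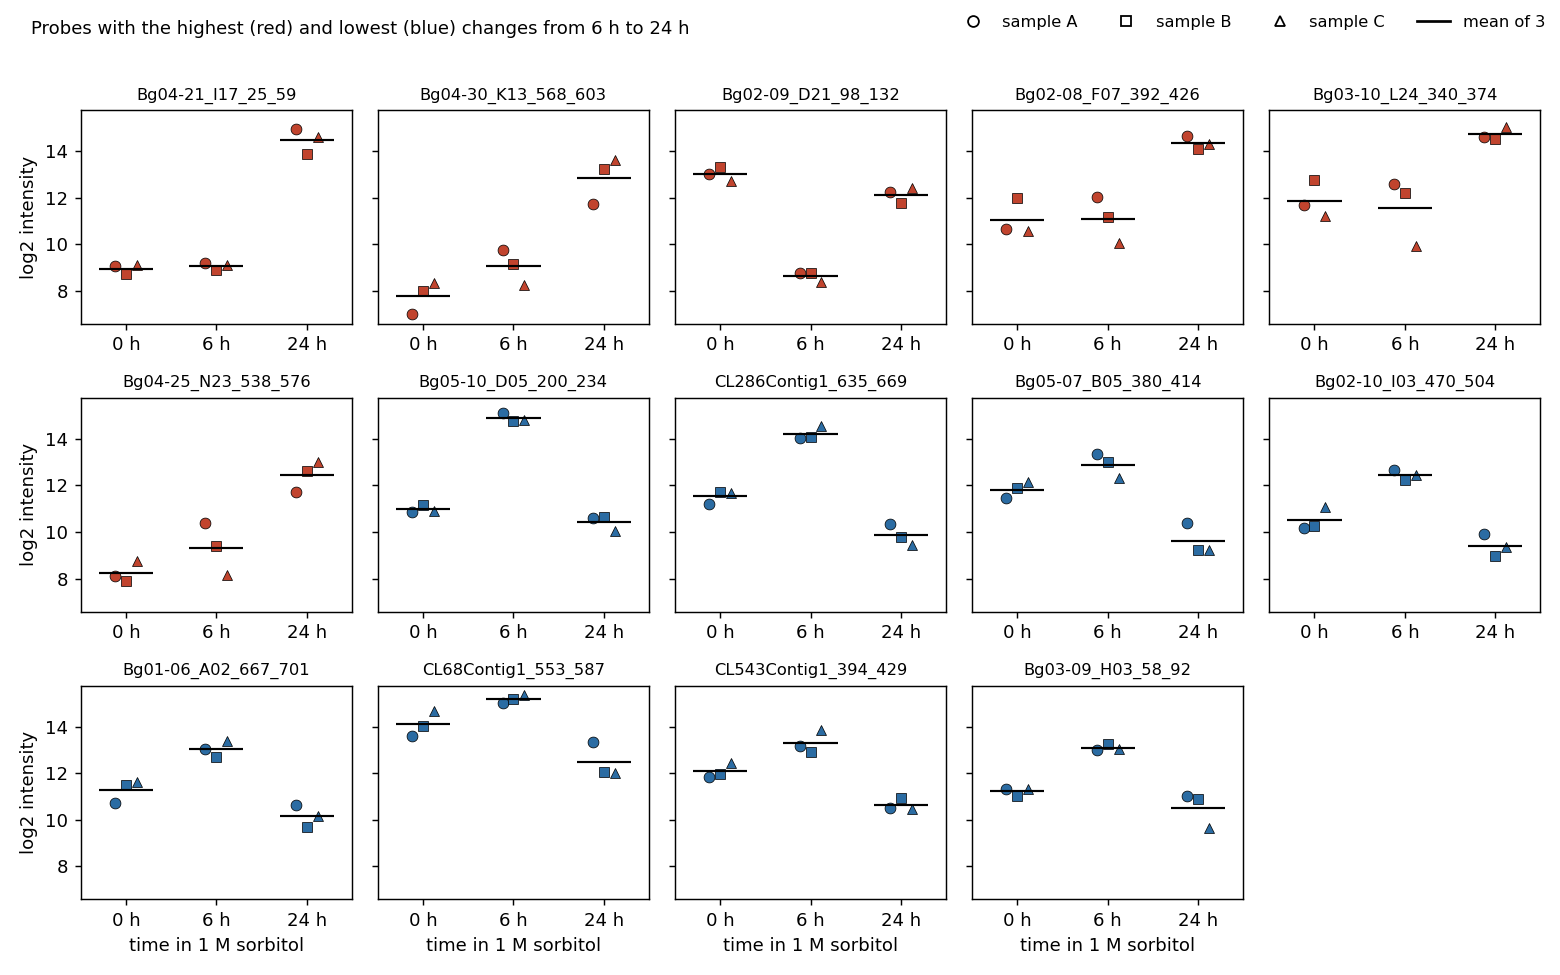
Log2 intensity of 14 probes among those with the highest (red) and lowest (blue) log2 fold changes, at 0 h, 6 h and 24 h in 1 M sorbitol; circles, squares and triangles are samples A, B and C and bars their means. The red probes are highest at 24 h or, in Bg02-09_D21, lowest at 6 h, and all 8 blue probes are highest at 6 h.

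Against sorbitol 0 h, 271 probes (3.13%) were called at 6 h and 822 (9.5%) at 24 h, and these comparisons share their 0 h samples with each other and their 6 h or 24 h samples with the main one. The 8 probes with the largest falls among those detected at both times all stood highest at 6 h. Their 24 h means lay below untreated leaves. Bg05-10_D05 read 10.62, 10.64 and 10.04 at 24 h, against 15.11, 14.78 and 14.82 at 6 h. Its log2 fold change of -4.47 (limma, SE 0.25, adjusted p = 1.14e-10) followed one of 3.93 for 6 h over 0 h (limma, SE 0.25, adjusted p = 2.64e-09). The 24 h mean was 0.54 below that of 0 h, a difference that did not pass the test (limma adjusted p = 0.175).

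CL286Contig1 read 10.34, 9.79 and 9.43 at 24 h, against 14.02, 14.08 and 14.57 at 6 h, and its log2 fold change was -4.37 (limma, SE 0.36, adjusted p = 1.15e-07). Here the 24 h samples were also below each 0 h sample (11.22, 11.72 and 11.66), with a log2 fold change of -1.68 for 24 h over 0 h (limma adjusted p = 0.00425). Bg05-07_B05 read 10.41, 9.25 and 9.22 at 24 h, against 13.36, 12.99 and 12.34 at 6 h, a log2 fold change of -3.27 (limma, SE 0.35, adjusted p = 3.98e-06). Most of its fall lay below the untreated level, since 24 h over 0 h gave -2.20 (limma adjusted p = 0.000217) and 6 h over 0 h only 1.07 (limma adjusted p = 0.114).

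The other 5 fell by 2.59 to 3.03 on the log2 scale. Bg02-10_I03 read 9.92, 8.98 and 9.36 at 24 h, against 12.65, 12.24 and 12.46 at 6 h. Bg01-06_A02 read 10.61, 9.68 and 10.15 at 24 h, against 13.05, 12.71 and 13.39 at 6 h. In both, as in CL543Contig1 and Bg03-09_H03, the preceding rise over 0 h passed the test. CL68Contig1 read 13.34, 12.06 and 12.00 at 24 h, against 15.00, 15.20 and 15.34 at 6 h, and CL543Contig1 read 10.52, 10.93 and 10.48 at 24 h, against 13.16, 12.92 and 13.83 at 6 h. Bg03-09_H03 read 11.00, 10.87 and 9.65 at 24 h, against 13.01, 13.26 and 13.02 at 6 h. No sample at 24 h reached the lowest sample at 6 h in any of these 5, which the rule that named them required.

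The probes that overlap Bg03-09_H03 had log2 fold changes nearer to 0, a gap that was not tested. Its log2 fold change was -2.59 (limma, SE 0.35, adjusted p = 6.31e-05), against -0.96 for Bg04-03_N01 (limma adjusted p = 0.0481) and -0.99 for CL120Contig1 (limma adjusted p = 0.059). At 24 h sample C was the lowest of the 3 for Bg03-09_H03 (9.65) and the highest for Bg04-03_N01 (11.37) and CL120Contig1 (11.78). The change of 24 h over 0 h was -0.72 for Bg03-09_H03 (limma adjusted p = 0.212). For Bg04-03_N01 it was 0.66 (limma adjusted p = 0.148) and for CL120Contig1 0.76 (limma adjusted p = 0.117), so their 24 h means lay above untreated leaves. Over the whole array 22 pairs of probes that share 20 or more bases held a called probe. In all 22 the log2 fold changes had the same sign, and both probes were called in 11.

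Some transcripts were detected at one time and not at the other. Of the 276 probes higher at 24 h, 208 were above the negative controls in all 6 samples and 17 in the 3 samples at 24 h but in none at 6 h. Of the 191 lower ones, 128 were detected in all 6 and 26 in no sample at 24 h but in all 3 at 6 h. The threshold was most lenient on sorbitol 6 h C, where 8236 probes passed it.

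CL177Contig1 had the largest fall. At 24 h it did not pass the negative controls and measured 7.52, 6.97 and 6.88, against 14.82, 14.73 and 15.04 at 6 h. The fall was at least 102-fold (limma adjusted p = 6.27e-12), taken against the lowest detected signal of each 24 h array or the probe's own value, whichever was higher. Untreated leaves lay between, at 9.31, 9.77 and 10.82, and were above the negative controls in all 3 samples.

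Bg03-09_J10, CL692Contig1 and Bg05-22_G11 were also at background at 24 h. Bg03-09_J10 measured 7.96, 7.74 and 7.99 at 24 h, against 9.68, 9.80 and 11.02 at 6 h, at least 3.94-fold lower (adjusted p = 0.000246, limma). CL692Contig1 measured 6.84, 7.77 and 6.88 at 24 h, against 10.08, 9.97 and 9.48 at 6 h, at least 3.14-fold lower (adjusted p = 4.43e-05, limma). Bg05-22_G11 measured 6.95, 6.84 and 7.38 at 24 h, against 9.88, 9.63 and 9.44 at 6 h, at least 2.76-fold lower (adjusted p = 3.96e-07, limma). The first and second were above the negative controls in all 3 samples at 0 h, whereas Bg05-22_G11 was so in none.

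The opposite pattern was found in Bg03-01_D16, Bg05-20_B04, Bg05-25_K02 and Bg04-05_M06. Bg03-01_D16 measured 10.04, 10.59 and 10.80 at 24 h, against 7.65, 7.46 and 7.04 at 6 h, where none passed the negative controls. It was at least 5.72-fold higher (adjusted p = 5.61e-06, limma), and Bg04-05_N13, of identical sequence, was at least 4.45-fold higher (adjusted p = 0.003, limma). The 24 h values of Bg04-05_N13 were 10.58, 11.22 and 8.54, so that the same bases gave sample C a lower reading on this spot.

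Bg05-20_B04 measured 10.34, 9.66 and 9.61 at 24 h, against 7.30, 6.85 and 7.04 at 6 h, at least 3.75-fold higher. Bg05-25_K02 measured 10.46, 9.31 and 9.75 at 24 h, against 7.19, 6.95 and 7.04 at 6 h, at least 3.68-fold higher. Both were above the negative controls in the 3 sorbitol 24 h samples and in none of the 15 others. Of all tested probes 5 had that pattern. Such probes passed the detection filter only through the sorbitol 24 h samples, so a higher value there was fixed by the filter. Their p-values are therefore not given.

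Bg04-05_M06 differed from these because it was present before treatment. It measured 8.62, 9.05 and 8.75 at 0 h, was at background with 6.60, 7.66 and 7.04 at 6 h, and measured 9.57, 9.11 and 9.57 at 24 h. It was at least 2.74-fold higher at 24 h than at 6 h (adjusted p = 1.54e-05, limma).

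The 0 h leaves of the sorbitol series show on which side of the untreated level each change lay. These samples were not used in the contrast, but the position divides by the difference that chose the called probes, so it is given as a description with no test. The sorbitol 0 h mean lay between the 6 h and 24 h means for 144 of the 276 higher probes and 119 of the 191 lower ones. Among the called probes it was nearer to the 24 h mean for 118 (25.3%), against 38.3% of all tested. It was nearer to 24 h for 83 of the higher (30.1%) and 35 of the lower probes (18.3%). Beyond the 6 h mean were 36.4% of the called probes, and beyond the 24 h mean 7.28%, against 42.7% and 24.7% of all tested. Without the floor arrays the share nearer to the 24 h mean was 43.4% of the called and 40.7% of the tested probes. That setting left 2 samples at each of these times and called partly other probes, and the cause of the shift was not tested.

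**Figure D3:**
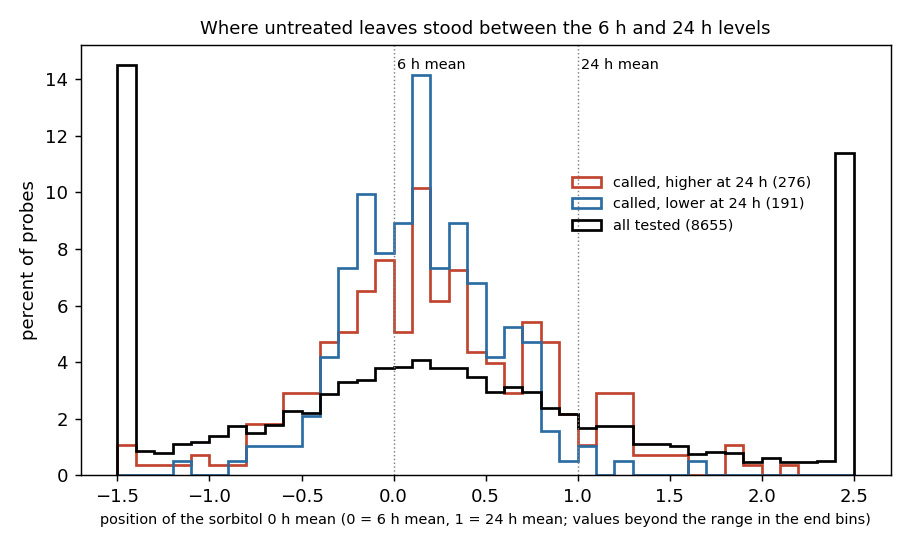
Position of the sorbitol 0 h mean on a scale where 0 is the 6 h mean and 1 the 24 h mean (horizontal axis), as percent of probes (vertical axis), for probes called higher (red), called lower (blue) and all tested (black); the end bins hold everything beyond. Called probes gather around the 6 h mean, and the tested probes, many with a small difference to divide by, fill the end bins.

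Called probes had a stronger signal than the rest and came more often from contigs. In 4 bins of equal size by mean intensity over the samples, dimmest first, 3%, 3.79%, 5.64% and 9.15% of probes were called. Contig probes made up 24.2% of the called and 11.9% of the tested probes. Within the dimmest bin 5.43% of contig and 2.85% of clone probes were called, and within the brightest 14.8% and 7.5%. The bins are wide, and brightness within them was not matched. GC content did not separate them, with a median of 48.6% in the higher, the lower and all tested probes.

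The same interval in 500 mM NaCl answers which of these changes were found with salt as well. The series share no samples. In NaCl 219 probes (2.53%) differed between 24 h and 6 h, 133 higher (1.54%) and 86 lower (0.994%). Higher in both were 68 probes, which is 24.6% of the sorbitol list and 51.1% of the NaCl list, and lower in both were 38, which is 19.9% and 44.2%. No probe was called in opposite directions. The NaCl change was above 0 for 206 of the 276 probes higher in sorbitol (74.6%, against 48.9% of all tested) and below 0 for 125 of the 191 lower ones (65.4%, against 51.1%). The median NaCl log2 fold change was 0.43 for the higher and -0.23 for the lower probes, against -0.01 over all. Across all 8655 probes the changes correlated at r = 0.184, where probes are not independent and each series holds floor arrays.

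Among probes detected in all 12 samples of both intervals, those that moved furthest in both series were Bg05-10_D05, Bg02-09_D21, Bg05-07_B05 and CL286Contig1. In NaCl Bg05-10_D05 read 10.99, 10.82 and 10.57 at 24 h, against 15.57, 15.84 and 15.34 at 6 h, a log2 fold change of -4.78 (limma, SE 0.25, adjusted p = 9.16e-11). Its spot was at the scanner ceiling on NaCl 6 h B, so this size is not exact. Bg02-09_D21 read 13.05, 12.71 and 12.46 at 24 h in NaCl, against 9.09, 8.74 and 9.32 at 6 h, a log2 fold change of 3.69 (limma, SE 0.28, adjusted p = 4.17e-08). Its dip at 6 h was thus present in both series, and the changes in sorbitol and NaCl differed by -0.20 (limma, SE 0.39, adjusted p = 0.826).

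Bg05-07_B05 changed by -3.90 in NaCl (SE 0.35) and CL286Contig1 by -3.04 (SE 0.36). For Bg05-07_B05 sorbitol minus NaCl was 0.63 (limma, SE 0.49, adjusted p = 0.54) and for CL286Contig1 -1.32 (limma, SE 0.50, adjusted p = 0.217). CL177Contig1 also fell in NaCl, to 9.98, 9.84 and 9.47 at 24 h, against 15.31, 15.57 and 15.38 at 6 h, where 1 spot was at the ceiling. It remained above the negative controls in the 3 NaCl 24 h samples and in none of the sorbitol 24 h samples. With values at background at sorbitol 24 h and a spot at the ceiling at NaCl 6 h, the difference of its changes has no exact size and is not given. The 12 probes shown for a fall were picked, 8 by the size of the change and 4 by its bound. Of them 11 were also called lower in NaCl, against 38 of the 191 probes lower in sorbitol (19.9%) and 0.994% of all tested. The exception was Bg03-09_H03 (-1.23, limma adjusted p = 0.0626). The probes that overlap it were called lower in NaCl. Bg04-03_N01 changed by -2.02 (limma adjusted p = 0.000106) and CL120Contig1 by -1.74 (limma adjusted p = 0.00119).

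**Figure D4:**
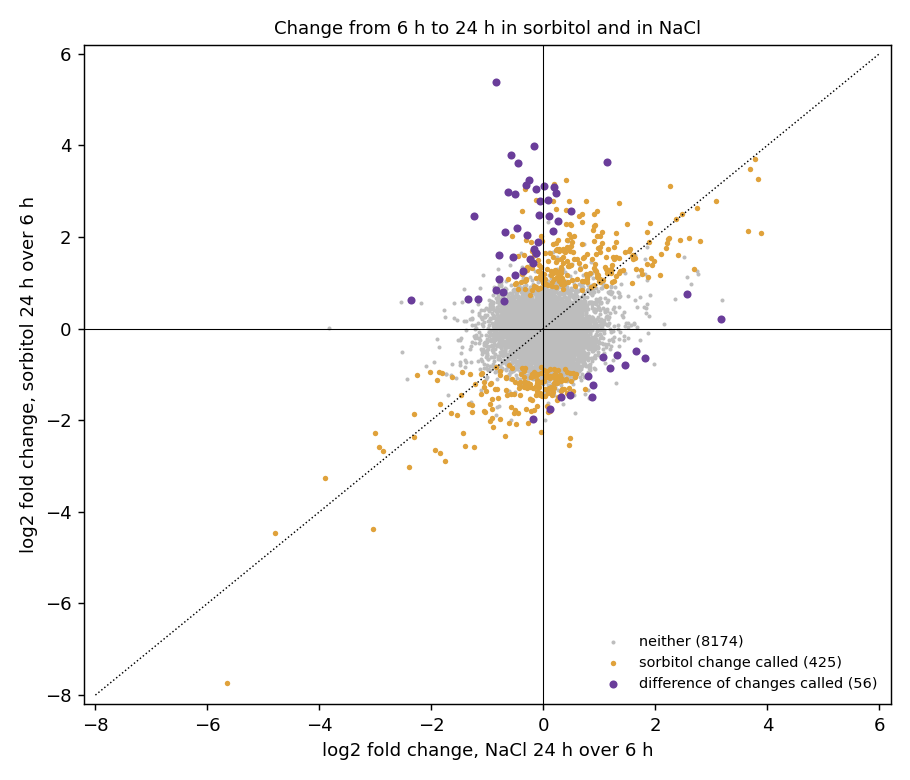
Log2 fold change of 24 h over 6 h in sorbitol (vertical axis) against that in NaCl (horizontal axis) for all tested probes, with equality dotted. Purple points are the 56 probes whose change differed between the series, orange points the 425 others called in sorbitol and grey points the rest; most purple points lie above 0 in sorbitol and near 0 in NaCl.

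The change between 24 h and 6 h differed between sorbitol and NaCl for 56 probes (0.647%), 41 with a higher value in sorbitol (0.474%) and 15 with a lower one (0.173%). Of these, 42 were among the 467 called in sorbitol. The count fell to 1 without the floor arrays, to 10 with a background offset of 0 and to 19 without NaCl 24 h B, and was 151 without sorbitol 6 h A. Of the 12 probes described next, none kept its call in every alternative.

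Bg04-21_I17 had the largest difference. Its change in NaCl was -0.84 (limma, SE 0.29, adjusted p = 0.171), with 8.93, 8.76 and 8.59 at NaCl 24 h, against 9.86, 9.71 and 9.23 at NaCl 6 h. Sorbitol minus NaCl was 6.23 (limma, SE 0.42, adjusted p = 1.42e-08). The level of the 3 sorbitol 24 h samples was thus reached in none of the other 15 samples. This was also the probe whose difference was called without the floor arrays. The difference was smaller with foreground medians, 4.64 (limma adjusted p = 0.00815), and with the authors' normalization rebuilt, 4.40 (limma adjusted p = 0.00945).

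Bg04-30_K13, Bg05-20_B04 and Bg05-25_K02 were above the negative controls in no NaCl sample at any time. Sorbitol minus NaCl was 4.36 for Bg04-30_K13 (limma, SE 0.62, adjusted p = 0.0016). It was 2.72 for Bg05-20_B04 and 2.83 for Bg05-25_K02, given without p-values, since both passed the filter only through sorbitol 24 h. These sizes come partly from values at background. Of the 276 probes higher in sorbitol, 16 (5.8%) were detected in none of the 9 NaCl samples, against 0 of the 191 lower ones and 0.878% of all tested. Those detected in no NaCl sample needed 3 detections among the sorbitol samples to be tested, which favours this direction.

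Bg04-25_N23, Bg03-01_D16, Bg01-01_D15 and CL41Contig1 also changed more in sorbitol. Each lost its call without the floor arrays, with an offset of 0 and with the authors' deposited table. Bg01-01_D15 lost it in 9 and CL41Contig1 in 10 of 27 other settings. Sorbitol minus NaCl was 3.44 for Bg04-25_N23 (limma, SE 0.63, adjusted p = 0.0121) and 2.90 for Bg03-01_D16 (limma, SE 0.48, adjusted p = 0.00747). Bg04-25_N23 was detected in 1 of the 9 NaCl samples and Bg03-01_D16 in 3, so their NaCl values lay mostly at background. For Bg01-01_D15 the difference was 3.44 (limma, SE 0.70, adjusted p = 0.0258). CL41Contig1 read 12.61, 13.11 and 13.11 at sorbitol 24 h, against 10.74, 10.03 and 8.75 at sorbitol 6 h. It read 9.81, 9.43 and 10.14 at NaCl 24 h, against 9.01, 10.29 and 10.03 at NaCl 6 h, and sorbitol minus NaCl was 3.09 (limma, SE 0.63, adjusted p = 0.0258). In NaCl its samples at the different times overlapped, whereas in sorbitol they did not.

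The 4 lowest differences were smaller, and each was lost under many other settings. Bg01-01_B02 read 9.68, 10.27 and 9.36 at sorbitol 24 h, against 10.07, 10.78 and 10.85 at sorbitol 6 h, and 10.47, 11.63 and 11.49 at NaCl 24 h, against 10.02, 10.25 and 8.92 at NaCl 6 h. Sorbitol minus NaCl was -2.27 (limma, SE 0.50, adjusted p = 0.0432), and the rise in NaCl (1.47) passed its own test where the change in sorbitol (-0.80) did not. Bg01-07_B02 showed the same form, with -0.58 in sorbitol (limma adjusted p = 0.33), 1.32 in NaCl (limma adjusted p = 0.0139) and a difference of -1.90 (limma, SE 0.41, adjusted p = 0.0405).

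In Bg05-14_H17 and CL276Contig1 the fall in sorbitol was the change that passed. Bg05-14_H17 read 9.25, 8.68 and 9.13 at sorbitol 24 h, against 10.58, 10.62 and 10.19 at sorbitol 6 h, and its difference was -1.91 (limma, SE 0.43, adjusted p = 0.0462). CL276Contig1 read 11.11, 10.57 and 10.10 at sorbitol 24 h, against 12.07, 12.55 and 12.41 at sorbitol 6 h, and its difference was -1.87 (limma, SE 0.41, adjusted p = 0.0428). Neither changed in NaCl by an amount that passed the test (0.47 and 0.12).

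Of the 22 probes named here for their sorbitol change, 14 were called under every alternative in which they were tested. The other 8 were lost only with the authors' deposited table, where 2 of the sorbitol 24 h columns are on another scale. Bg05-20_B04 and Bg05-25_K02 are among these 8 and could be tested in only 16 alternatives. They passed the detection filter only through sorbitol 24 h, so their kept calls add no support. No direction turned round.

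**Figure D5:**
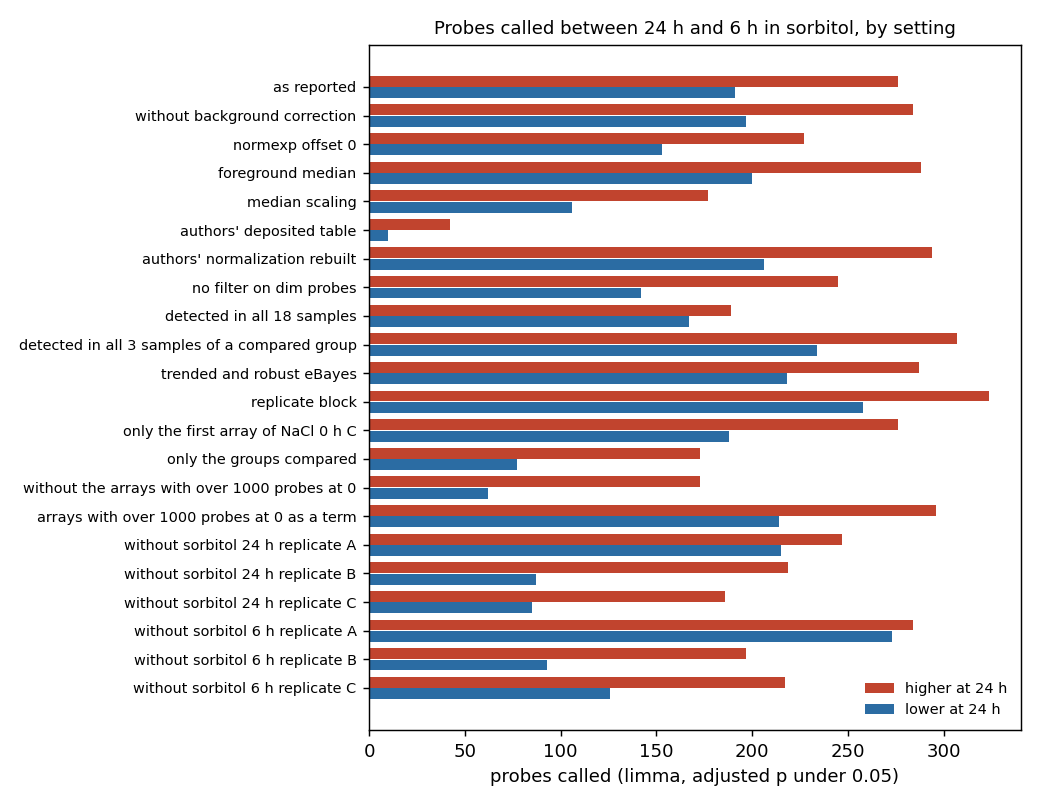
Number of probes called between 24 h and 6 h in sorbitol (horizontal axis, limma adjusted p under 0.05) under each processing setting, higher at 24 h in red and lower in blue. Higher probes outnumber lower ones in every setting shown, and the authors' deposited table gives the fewest, 42 higher and 10 lower.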

How the data were processed

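Foreground mean and median intensity per spot, on a linear scale up to a ceiling of 65535, are given in the deposited scanner files, per the file headers; the scanner software was not stated. The authors' deposited table of intensity values holds quantile-normalized medians, except for sorbitol 24 h B, sorbitol 24 h C and the repeat array, which are as scanned, and was used as an alternative only. RNA was labelled after amplification from 1 µg, per the labels' protocols.

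Foreground means were background-corrected (normexp, offset 50), log2 transformed and quantile-normalized over 11997 mangrove probes on 19 arrays. On the 4 floor arrays normexp failed and the foreground plus 50 was used. A probe was detected where it exceeded the 95th percentile of 70 negative controls, and 8655 probes detected in at least 3 of 18 samples were tested. All 18 samples entered 1 limma model of 6 group means (lmFit, eBayes, 12 residual degrees of freedom, repeat arrays averaged first). The difference of changes is sorbitol minus NaCl of 24 h minus 6 h.

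The members and lists were chosen with earlier results of these data known. Named are, among called probes, the 8 highest and 8 lowest changes with groups not overlapping and detected in all 6 samples, the 4 largest bounds each way for probes detected in all 3 samples of one time and none of the other, the 4 highest and 4 lowest differences and the 4 with the largest smaller change in both series, detected in all 12 samples; probes sharing 20 bases stand with the first. 2 probes that the rule picks are not reported here. No gene lists were used, since the files pair no probe with a gene name.

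The tests were run on simulated data of 8655 probes, with independent normal noise of each probe's own spread. Floor arrays, readings of 0 and effects shared by a letter were not simulated. The recovery and false calls below therefore do not cover them. A log2 change of 1 was recovered for 15 of 50 probes in the sorbitol test and 1 of 50 in the difference test. At 1.5 these were 36 and 15, and at 2 they were 46 and 38. The difference test thus missed more changes of these sizes. Of 8455 unchanged probes 6 and 4 were called. R 4.3.3, limma 3.58.1, Python 3.11.15 and matplotlib 3.10.9 were used. Letters were not taken to pair the samples, although the 4 floor arrays are all of letter C. No pair of groups had every correlation of deviations over 0.1, though sorbitol and NaCl at 6 h came close. In the order A, B and C these were -0.14, 0.111 and -0.153 for sorbitol 24 h and 6 h, 0.363, -0.302 and 0.213 for NaCl 24 h and 6 h, 0.0177, -0.0296 and 0.108 for sorbitol and NaCl at 24 h, and 0.394, 0.0979 and 0.326 at 6 h. Alternatives covered background, scaling, filter, eBayes form, the samples in the fit, the floor arrays and each replicate left out. The count in NaCl and the count called in both series were recomputed under alternatives chosen after seeing the data.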

Additional observations from a re-analysis of the deposited data

Results flagged for a closer look

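The change between 24 h and 6 h was tested for a difference between sorbitol and NaCl, and 56 of 8655 probes passed (limma adjusted p under 0.05; 1394 at an unadjusted p under 0.05). Among the probes named in the report the log2 difference, sorbitol minus NaCl, was 6.23 for Bg04-21_I17, 4.36 for Bg04-30_K13, 3.44 for Bg04-25_N23 and 3.44 for Bg01-01_D15. It was 3.09 for CL41Contig1, 2.9 for Bg03-01_D16, 2.83 for Bg05-25_K02 and 2.72 for Bg05-20_B04. On the negative side it was -2.27 for Bg01-01_B02, -1.91 for Bg05-14_H17, -1.9 for Bg01-07_B02 and -1.87 for CL276Contig1. The call was kept for Bg04-21_I17 in 25 of 26 other settings and for Bg05-20_B04 and Bg05-25_K02 in 21 of 22, in each case all but the authors' deposited table. Bg05-20_B04 and Bg05-25_K02 did not pass the detection filter without the floor arrays, with any sorbitol 24 h sample left out, or where detection in all 18 samples was asked for, so they were not tested there. Both passed the filter only through the sorbitol 24 h samples, where they are high, so their kept calls add no support. For Bg04-30_K13 the call was kept in 24 of 26 settings, and for Bg04-25_N23 and Bg03-01_D16 in 23 of 26. For Bg01-01_D15 it was kept in 18 and for CL41Contig1 in 17 of 27. The call was kept for Bg05-14_H17 in 9, Bg01-07_B02 in 10, CL276Contig1 in 12 and Bg01-01_B02 in 13 of 27. The direction was the same in every setting run.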

How the results depend on the processing

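The count of 467 probes between sorbitol 24 h and 6 h was 283 with median scaling, 250 with only the groups compared in the fit, 235 without the floor arrays and 52 with the values of the authors' deposited table, where 80.8% of calls were higher at 24 h, against 59.1%. With each of the 6 samples left out in turn it ran from 271 to 557. Among the alternatives the count stayed within 1.5 times with the other settings, from 356 (detected in all 18 samples) to 582 (replicate block). The share called higher was 73.6% without the floor arrays and 69.2% with only the groups compared. The count of 56 differences between sorbitol and NaCl was 10 with offset 0, 19 with median scaling, 0 with the authors' deposited table, 31 with no filter on dim probes, 34 with only the groups compared, 1 without the floor arrays, and 19 to 151 with a sample left out. The letters were not taken to pair the samples, and whether samples of a letter share an effect was not tested. With the replicate letter as a block 123 differences were called, with 56 shared. The share of called probes whose 0 h mean was nearer to 24 h, 25.3%, was 43.4% without the floor arrays and 20.3 to 32.1% with a sample left out. The count in NaCl, 219, was 115 with median scaling, and the count called the same way in both series, 106, was 52. The cause of these shifts was not tested. Median scaling moved the median of all probes between sorbitol 24 h and 6 h to -0.04, against 0.01. Signal over background limits the dim probes, most of all on sorbitol 24 h C and 6 h C.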
